A study of Mus musculus with 12 samples.

Results

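The 8 genes described here make the machinery of V(D)J recombination or act beside it, and they are Rag1, Rag2, Dntt, Ptcra, Dclre1c, Prkdc, Lig4 and Xrcc4. Their peaks were the rows of the master peak-list whose gene name, given by HOMER as the gene with the nearest transcription start site (TSS), was one of the 8. These were 30 of 84243 peaks, and the list named 19040 genes in all. The list comes from ATAC-seq, in which a transposase inserts adapters into exposed DNA, of 12 samples from 6 sorted blood cell types with 2 replicates each. All mice were wild type C57BL/6 animals aged 8 to 12 weeks, with no treatment, allele or agent that differed between groups. HSC, MkP (megakaryocyte progenitor), EP (erythroid progenitor), GM (granulocyte/macrophage) and B cell samples came from bone marrow, and T cell samples came from thymus by their labels. The study sorted B cells as CD43- B220+ and T cells as CD25- CD3+, so that B-lineage cells bearing CD43 and thymocytes bearing CD25 were outside the gates. The list pools all samples, holds 0 columns of values per sample, and gives every peak the same score. A peak in it is therefore open chromatin of an unnamed cell type or of several, depth is unknown, no value has a replicate error, and the labelled cell types could not be checked against their markers.

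V(D)J recombination builds the antigen receptor genes of B and T cells by cutting and rejoining gene segments. The RAG1 and RAG2 proteins together cut the DNA at recombination signal sequences, terminal transferase (Dntt) adds bases at the ends, and the end joining pathway that all cells use for broken DNA closes the break. Artemis (Dclre1c) and the kinase DNA-PKcs (Prkdc) open the hairpin ends, and ligase IV (Lig4) with its partner XRCC4 seals them. Ptcra encodes the pre-T cell receptor alpha chain, which pairs with the first rearranged beta chain in the thymus. The first 4 genes, in the order listed, are known for expression in developing lymphocytes, and the 4 repair genes for expression in most cells.

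The promoters of the 4 lymphocyte genes held few CpG dinucleotides and those of 2 repair genes held many, and the sequences below are shown for that feature. Each is a window from 250 bp before to 50 bp after the gene's TSS, from RefSeq on GRCm38.p6, written 5′ to 3′ on the gene's strand with every CpG dinucleotide in capitals. Entries were found for 7 of the 8 genes, and Prkdc had none. The Rag1 window lies at chr2:101649483-101649782 on the minus strand, and the Rag2 window at chr2:101624462-101624761 on the plus strand. Those of Dntt (chr19:41029025-41029324, plus strand), Ptcra (chr17:46763663-46763962, minus strand), Dclre1c (chr2:3423881-3424180, plus strand), Lig4 (chr8:9976262-9976561, minus strand) and Xrcc4 (chr13:90089559-90089858, minus strand) follow.
Rag1: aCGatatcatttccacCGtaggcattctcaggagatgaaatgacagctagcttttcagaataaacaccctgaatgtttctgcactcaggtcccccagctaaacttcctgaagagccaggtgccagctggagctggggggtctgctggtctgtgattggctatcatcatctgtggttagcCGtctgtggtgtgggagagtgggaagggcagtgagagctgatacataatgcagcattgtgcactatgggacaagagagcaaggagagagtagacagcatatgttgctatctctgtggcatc
Rag2: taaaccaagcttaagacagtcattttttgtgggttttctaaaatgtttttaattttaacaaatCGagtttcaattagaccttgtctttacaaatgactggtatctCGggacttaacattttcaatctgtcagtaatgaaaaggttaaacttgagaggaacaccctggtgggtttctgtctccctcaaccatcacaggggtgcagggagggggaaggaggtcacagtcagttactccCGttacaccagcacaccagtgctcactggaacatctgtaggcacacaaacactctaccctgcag
Dntt: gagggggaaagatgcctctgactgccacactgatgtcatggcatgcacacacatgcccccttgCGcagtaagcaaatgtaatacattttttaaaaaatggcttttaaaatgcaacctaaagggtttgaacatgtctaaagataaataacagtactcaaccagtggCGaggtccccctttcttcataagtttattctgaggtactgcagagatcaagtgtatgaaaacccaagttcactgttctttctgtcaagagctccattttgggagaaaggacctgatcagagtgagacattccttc
Ptcra: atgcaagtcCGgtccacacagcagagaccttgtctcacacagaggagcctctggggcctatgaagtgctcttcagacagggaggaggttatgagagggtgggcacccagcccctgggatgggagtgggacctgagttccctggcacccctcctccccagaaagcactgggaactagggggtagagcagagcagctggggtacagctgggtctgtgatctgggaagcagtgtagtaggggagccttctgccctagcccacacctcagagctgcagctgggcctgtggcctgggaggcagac
Dclre1c: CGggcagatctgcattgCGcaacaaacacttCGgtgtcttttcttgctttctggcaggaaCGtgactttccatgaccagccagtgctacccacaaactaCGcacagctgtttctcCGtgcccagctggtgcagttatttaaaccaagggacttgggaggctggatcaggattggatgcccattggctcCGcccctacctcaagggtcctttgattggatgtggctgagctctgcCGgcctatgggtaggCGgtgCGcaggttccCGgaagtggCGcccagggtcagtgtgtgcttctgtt
Lig4: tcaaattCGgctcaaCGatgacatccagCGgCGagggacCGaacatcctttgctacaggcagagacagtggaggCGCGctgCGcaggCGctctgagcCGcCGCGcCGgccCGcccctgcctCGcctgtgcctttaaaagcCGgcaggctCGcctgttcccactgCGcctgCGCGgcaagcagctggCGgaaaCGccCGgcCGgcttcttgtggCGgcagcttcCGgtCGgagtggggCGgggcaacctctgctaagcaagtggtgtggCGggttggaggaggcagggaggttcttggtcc
Xrcc4: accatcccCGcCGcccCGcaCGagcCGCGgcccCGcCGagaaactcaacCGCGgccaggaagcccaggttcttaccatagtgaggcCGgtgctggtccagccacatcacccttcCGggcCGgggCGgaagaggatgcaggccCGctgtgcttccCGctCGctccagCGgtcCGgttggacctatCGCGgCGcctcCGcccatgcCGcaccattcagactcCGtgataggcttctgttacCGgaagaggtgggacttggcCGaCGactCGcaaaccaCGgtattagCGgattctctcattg

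The Rag1 and Rag2 windows held 3 CpG each, that of Dntt held 2 and that of Ptcra held 1, against 29 in Lig4 and 31 in Xrcc4. Dclre1c, a repair gene, lay between them with 12. G plus C content was 61.7% in Ptcra and 56.3% in Dclre1c, so that feature does not separate the kinds. The ratio of observed to expected CpG, which corrects for the number of C and G bases, was 0.165 in Rag1, 0.216 in Rag2, 0.149 in Dntt and 0.036 in Ptcra. It was 0.505 in Dclre1c, 0.857 in Lig4 and 0.97 in Xrcc4, and the median of 16473 such windows was 0.611. Ptcra combined one of the lowest ratios with a high G plus C content, and 4.78% of all windows had a lower ratio. Calling a window CpG-rich at a ratio of at least 0.6 and a G plus C content of at least 50%, 0 of the 4 lymphocyte genes and 2 of the 3 repair genes with a window passed, against 48.4% of all windows. These counts are too few to set the genes apart from that share.

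Peaks were called at the promoters of all 4 repair genes and of 2 of the 4 lymphocyte genes. By gene name, 4 of the 8 genes had a promoter peak, with a center within 500 bp of a TSS, namely Rag1, Rag2, Dclre1c and Lig4. Across the list 64.5% of the 19040 gene names had a promoter peak of their own name. That share covers only genes that the list names, whereas the 8 include Ptcra, which it does not name. By position, whatever the name, 6 of the 8 had a peak center within 500 bp of their RefSeq Select TSS (the one representative TSS that RefSeq gives each gene), against 58.9% of all 20962 protein-coding genes. The 2 added genes were Prkdc and Xrcc4, whose promoter peaks carry the name of a neighbor. Among the lymphocyte genes Rag1 and Rag2 had a peak at the TSS, while Dntt and Ptcra did not. Among the 16473 windows, which do not cover all 20962 genes, 88.3% of CpG-rich and 31.9% of CpG-poor ones had such a peak. Of the 5 CpG-poor windows of the 8 genes, those of Rag1, Rag2 and Dclre1c had one. With so few genes and no replicates, no test was made.

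**Figure D1:**
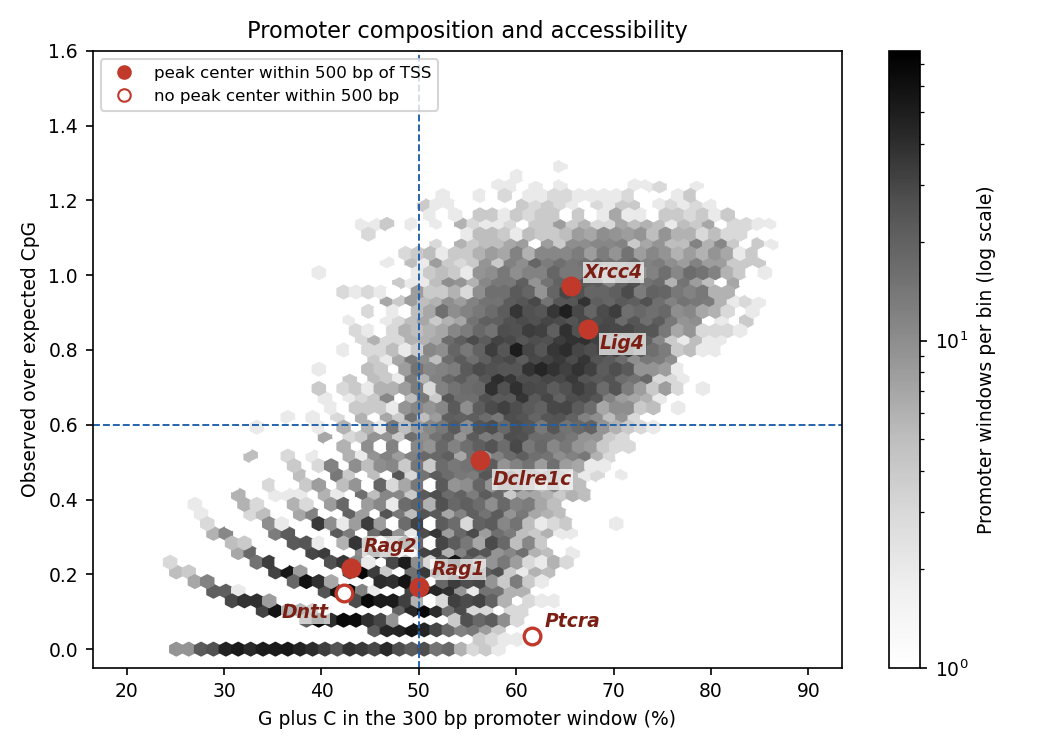
G plus C content in percent (x axis) against the ratio of observed to expected CpG (y axis) in the 300 bp promoter window of 16473 genes, shaded by the number of windows per bin on a log scale, with 7 V(D)J recombination genes as circles, filled where a peak center lay within 500 bp of the TSS. Dashed lines mark the limits of a CpG-rich window (0.6 and 50%). Lig4 and Xrcc4 lie above both limits with a peak, Rag1 and Rag2 have a peak at ratios of 0.165 and 0.216, and Dntt and Ptcra are open circles.

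The recombinase genes Rag1 and Rag2 lie next to each other on chromosome 2, with their 3′ ends facing and 24820 bp between their TSSs. The Rag1 promoter peak, at chr2:101649307-101649805 of mm10, was centered 24 bp upstream of the TSS. The Rag2 promoter peak, at chr2:101624726-101625224, was centered 227 bp downstream of the TSS in intron 1 of 2. Both were poor in CpG for promoter peaks. The ratio of observed to expected CpG over the whole peak was 0.245 for Rag1 and 0.201 for Rag2, and 6.42% and 4.44% of all promoter peaks had a lower one. Of the 4 promoter peaks named for the 8 genes, only that of Lig4 was CpG-rich, whereas 74.8% of all 13171 promoter peaks were.

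Rag2 was named for 11 peaks, 1 at the promoter and 10 distal, and 8.6% of gene names had at least as many. Rag1 was named for 2, its promoter peak and a peak 3492 bp upstream. Counted as one locus the pair had 13, and 5.91% of gene names had at least 13, while the median gene name had 3. The 13 sum 2 gene names, whereas the share and the median are over single names, so they are not on the same footing. Rag2 also has no protein-coding TSS upstream for 5306.5 kb, so distant peaks on that side can take its name. The distal peaks named Rag2 all lay on the side away from Rag1, which the naming rule favors. Of these, 5 lay at 3001, 6229, 8659, 23983 and 25783 bp upstream of the Rag2 TSS, in introns 1 and 2 of the gene that the list calls B230118H07Rik and RefSeq calls Iftap. That gene is transcribed in the opposite direction from a TSS inside Rag2, so intronic peaks named for Rag2 stand in the body of another gene. The other 5 were intergenic, at 98810, 103953, 151801, 335381 and 338261 bp upstream. On the Rag1 side the Iftap TSS lies 4319 bp from that of Rag2. Peaks nearer to the Iftap TSS were therefore named B230118H07Rik, and they are given below.

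Between the nearest protein-coding RefSeq Select TSSs outside the pair and Iftap, those of Lrrc4c and Traf6, the list held 19 peaks. Besides the 13 named for Rag1 or Rag2, 3 were named B230118H07Rik, 2 Traf6 and 1 Lrrc4c. The B230118H07Rik peaks included a pair inside Rag2, 3793 and 4309 bp downstream of its TSS and next to the TSS of Iftap. The remaining one lay between the facing 3′ ends, 12532 bp from the Rag2 TSS and 12288 bp from that of Rag1. Rag1 itself, 11281 bp long, held no peak center in its body.

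Peaks were dense around the pair and sparse farther upstream of Rag2. From 25783 bp upstream of Rag2 to 3492 bp upstream of Rag1, 11 peaks lay within 54.6 kb (chr2:101598716-101653273), with a median distance of 3348 bp between neighboring centers against 9187.5 bp over the list. The peaks nearest Rag2 had 8 other peak centers within 25 kb, more than 87.3% of all peaks have, and the list's median was 4. None of the 11 was annotated to a repeat, and 4 were promoter peaks. Upstream of this run came the 5 intergenic Rag2 peaks, and beyond the farthest of them, at 338261 bp, the next peak center, near Lrrc4c, was 3.82 Mb away, and this interval ranked 16 among the 84222 between neighboring peaks of the list. The farthest Rag2 peak thus borders one of the longest stretches of the list without a called peak.

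**Figure D2:**
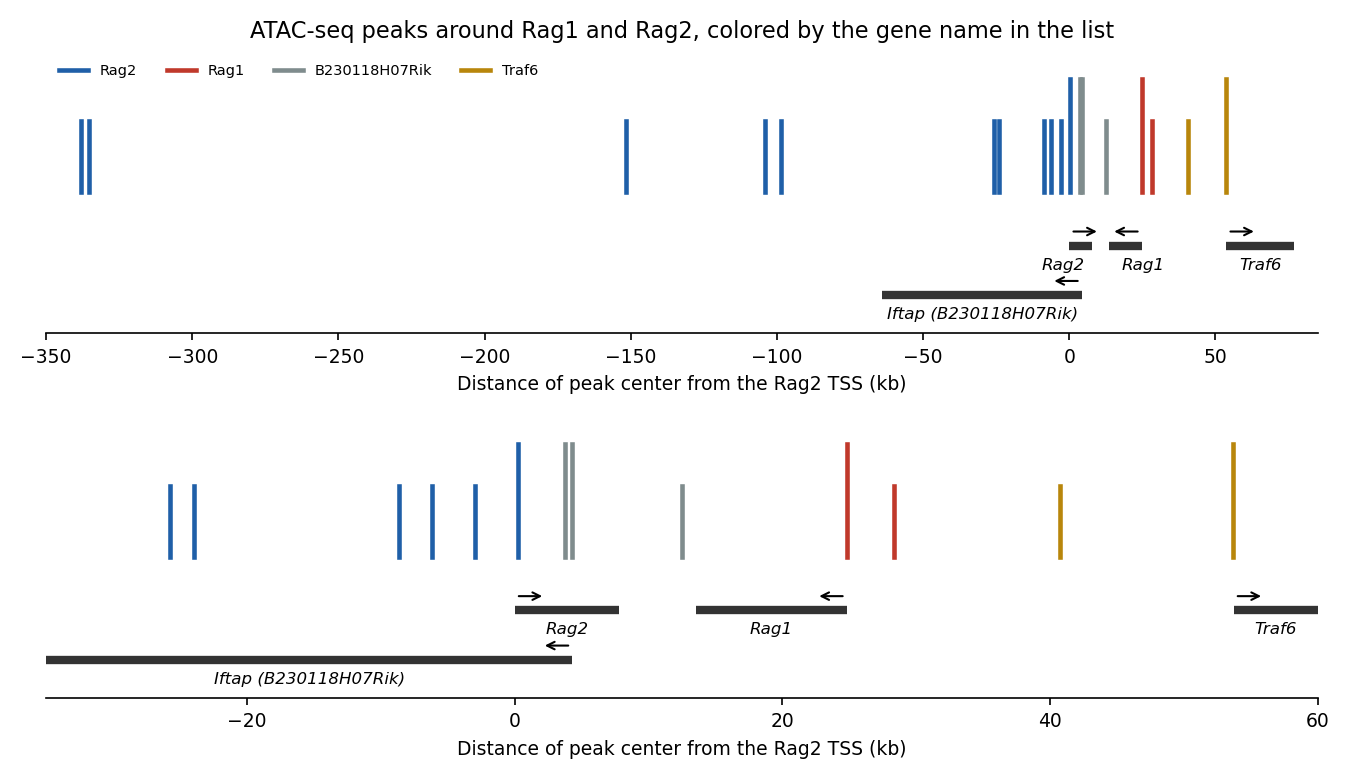
Peaks around Rag1 and Rag2 at their distance in kb from the Rag2 TSS (x axis), colored by the gene name in the list. The upper panel reaches upstream as far as the farthest Rag2 peak and leaves out the Lrrc4c peak. The lower panel enlarges a stretch around the pair that holds the 54.6 kb run and the Traf6 peaks. Taller ticks are promoter peaks, bars are genes and arrows start at the TSS and show the direction of transcription. The 11 Rag2 peaks reach from 338261 bp upstream to 227 bp downstream, and Rag1 has 2.

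The upstream Rag2 peak at 23983 bp held matches to the E-box, ETS, RUNX and MYB strings, with RUNX and MYB strings 3 times each, and is shown for its RUNX matches. Its central 200 bp (chr2:101600666-101600865, plus strand) are given with exact matches in capitals to the strings for E-boxes, ETS and RUNX factors defined below.
Rag2 upstream peak: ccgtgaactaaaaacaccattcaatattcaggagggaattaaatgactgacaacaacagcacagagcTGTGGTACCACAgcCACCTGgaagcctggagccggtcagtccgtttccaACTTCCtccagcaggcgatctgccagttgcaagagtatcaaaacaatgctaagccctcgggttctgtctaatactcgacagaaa
The run of capitals in the middle is a RUNX string followed directly by its own reverse complement, with an E-box 2 bases on. Over the whole peak there were 3 RUNX matches, and 2.36% of all distal peaks had as many. It also held 3 MYB matches (2.79% of distal peaks had as many), 2 E-boxes (19.2%) and 1 ETS match. Peaks of repair genes reached the same counts, with 3 RUNX matches in the Prkdc peak at 83040 bp and 3 MYB matches in the Lig4 peak at 854 bp. The Rag1 promoter peak held 2 RUNX matches (2.63% of promoter peaks had as many), 2 E-boxes (16.2%) and 1 ETS match. The peak 8659 bp upstream of Rag2 had neither E-box nor RUNX match but 3 TCF/LEF matches (0.837% of distal peaks had as many), and the Rag2 promoter peak held 2 GATA matches (0.736% of promoter peaks). The intergenic peak at 151801 bp was the only peak named Rag1 or Rag2 with a match to the CTCF string, the insulator factor's site. Among all distal peaks 6.29% had one. In the same locus, a peak upstream of Rag1 that was named Traf6 (chr2:101665184-101665682) also held a CTCF match.

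Dntt, which encodes terminal transferase, had 6 peaks and none at its promoter. They lay on both sides of its TSS on chromosome 19, at 6918, 2548 and 2001 bp upstream and at 1945, 7063 and 10039 bp downstream, the last 3 in introns 1, 1 and 3 of 10. The nearest center was thus 1945 bp from the TSS, and 65.2% of protein-coding TSSs had a nearer one. A further peak in Dntt, in intron 9 on a MER5A repeat, was named for Opalin, whose TSS is 47838 bp from that of Dntt. Between its neighbors Blnk and Opalin, in the 79.9 kb that the basal plus extension rule gives Dntt, there were 12 peaks. That rule assigns a gene the interval up to the neighboring basal promoters rather than the nearest TSS.

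E-boxes, the strings bound by E2A and related factors, were present in 4 of the 6 Dntt peaks and GATA strings in 3. Over all distal peaks 52.5% had an E-box and 26.9% a GATA string. The central 200 bp of 2 upstream peaks are printed for their E-boxes, at 6918 bp (chr19:41022258-41022457, plus strand) and 2001 bp (chr19:41027175-41027374, plus strand), with E-box, ETS and RUNX matches in capitals.
Dntt 6918 bp upstream: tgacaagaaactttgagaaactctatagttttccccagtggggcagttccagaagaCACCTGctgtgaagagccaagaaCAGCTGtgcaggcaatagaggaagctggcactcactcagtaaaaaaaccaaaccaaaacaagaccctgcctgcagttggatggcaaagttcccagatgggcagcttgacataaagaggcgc
Dntt 2001 bp upstream: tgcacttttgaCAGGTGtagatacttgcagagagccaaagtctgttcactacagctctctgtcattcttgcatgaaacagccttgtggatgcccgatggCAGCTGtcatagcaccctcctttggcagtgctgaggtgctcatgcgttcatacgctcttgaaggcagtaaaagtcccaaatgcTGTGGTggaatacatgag
Each holds 2 E-boxes, and 19.2% of distal peaks had as many. The nearer one also holds a RUNX match in this stretch.

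Ptcra had no peak. It was not named in the list, and no peak center lay in its 8050 bp gene body on chromosome 17 or in the 16.4 kb between the basal promoters of its neighbors Cnpy3 and 2310039H08Rik. The nearest center was 9072 bp from its TSS and was named for 2310039H08Rik, and 75.1% of protein-coding TSSs had a nearer one. Its promoter window held 3 E-boxes. At least 1 was present in 31.0% of all windows, and the share with as many as 3 is not given. A locus without a called peak may still have reads, and how many could not be read from the list.

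**Figure D3:**
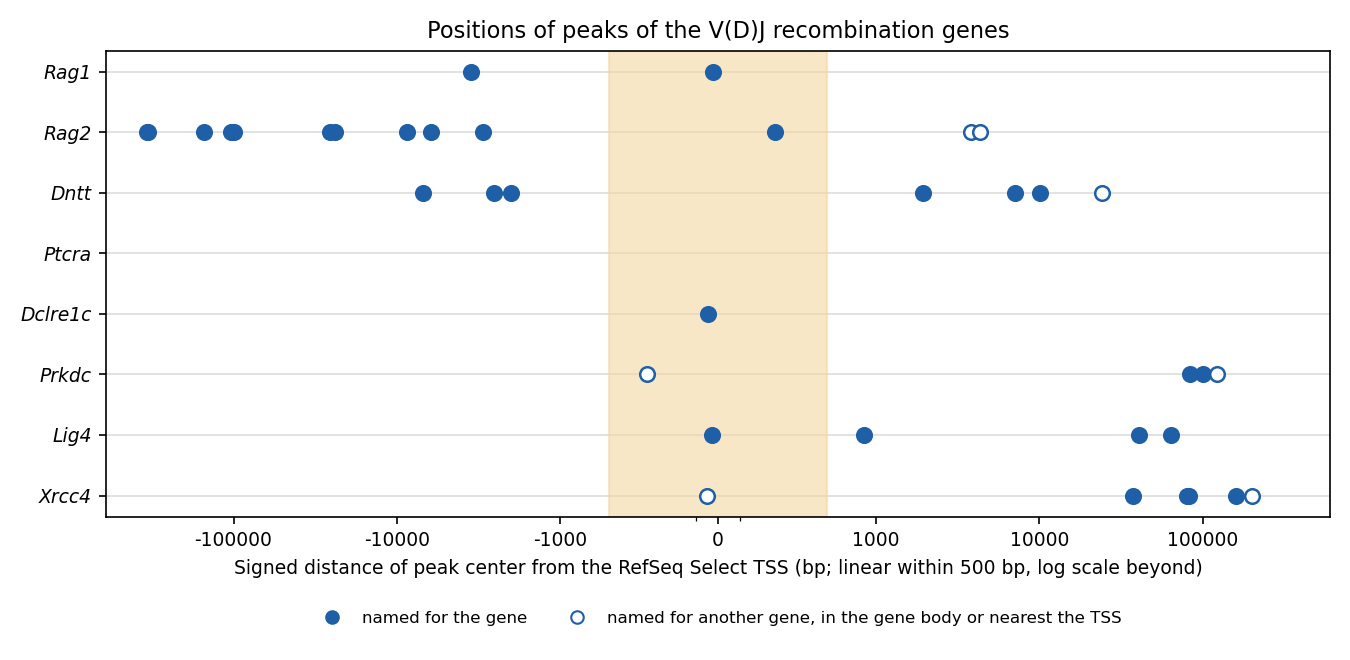
Signed distance in bp of each peak center from the RefSeq Select TSS (x axis, linear within 500 bp and logarithmic beyond) for the 8 genes (rows), with the promoter range shaded. Filled circles are peaks named for the gene and open circles are peaks in the gene body, or nearest the TSS, that are named for another gene. The distal peaks named Rag2 lie upstream while its promoter peak and the 2 open circles lie downstream, Prkdc, Lig4 and Xrcc4 distal peaks lie downstream, Dntt has peaks on both sides and none in the shaded range, and Ptcra has none.

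Of the repair genes, Dclre1c had 1 peak, at its promoter. It lay at chr2:3423834-3424332, centered 48 bp upstream of the TSS, and its CpG ratio of 0.539 missed the limit for a CpG-rich peak. It held 2 E-boxes (16.2% of promoter peaks had as many), 2 ETS matches (9.16%) and 3 CCAAT boxes (6.88%). Lig4 had 4 peaks. Its promoter peak (chr8:9976089-9976587) was centered 15 bp upstream of the TSS with a CpG ratio of 0.738 and a G plus C content of 65.9%. That peak held 2 GC boxes, the strings bound by SP1 and its relatives, and 54.1% of promoter peaks had as many. The other Lig4 peaks lay 854 bp downstream in the only intron of the Select transcript, and beyond the 3′ end at 40968 and 63961 bp, the last on an Lx9 repeat.

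Prkdc and Xrcc4 each share a promoter region with a gene on the opposite strand. The TSS of Prkdc is 466 bp from that of Mcm4, which encodes a subunit of the replicative helicase, and 1 peak (chr16:15637290-15637788) lay over the Mcm4 TSS and most of the interval. It was centered 139 bp from the Mcm4 TSS and 327 bp from the RefSeq Select TSS of Prkdc, and HOMER named it Mcm4. Another RefSeq TSS of Prkdc lay nearer, 95 bp from a peak center. Why HOMER chose Mcm4 was not tested. The TSS of Xrcc4 is 59 bp from that of Tmem167, and the peak there (chr13:90089412-90089910) was centered 53 bp from the Xrcc4 TSS and 6 bp from that of Tmem167. Of all protein-coding TSSs, 7.71% have such a divergent partner within 1 kb. Both shared peaks were CpG-rich, with ratios of 0.929 and 0.895. A count by gene name thus shows no promoter peak for either gene although a peak is present.

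The distal peaks of these genes were all intronic and far from the TSS. Prkdc had 2, at 83040 bp in intron 39 and 100915 bp in intron 49 of 85, the first on an L1MA7 repeat. One more, in intron 54, was named for Mzt2. Xrcc4 had 4, at 37693, 79635, 82108 and 160116 bp, in introns 3 and 7 of 7. Those at 37693 and 82108 bp lay on long terminal repeat elements (RLTR18-int and MTEb). The first of these held a CTCF match, as did the Lig4 peak at 40968 bp, against 6.29% of all distal peaks. A peak in intron 7 of Xrcc4 was named for Vcan.

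**Figure D4:**
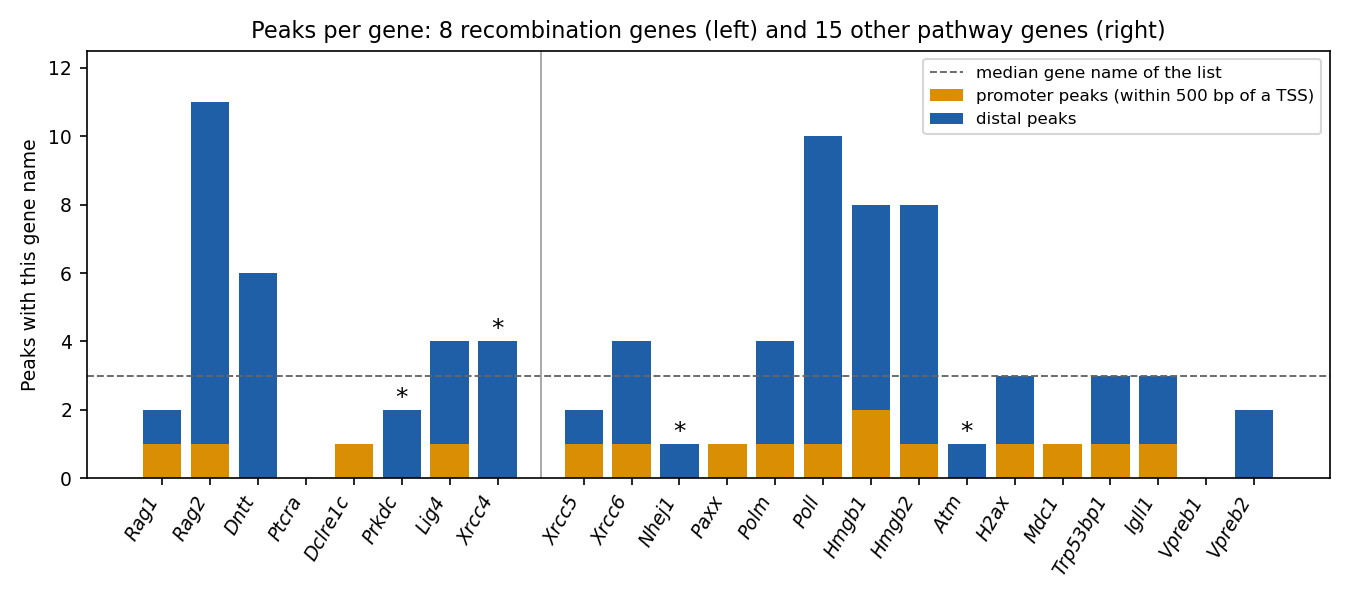
Number of peaks by gene name (y axis) for the 8 genes on the left and 15 other genes of the pathway on the right, split into promoter and distal peaks, with the median gene name of the list (3) as a dashed line. An asterisk marks genes with no promoter peak of their name but a peak center within 500 bp of the RefSeq Select TSS. Rag2 has the most with 11, followed by Poll with 10.

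Across the 8 genes, 4 of the 30 peaks were promoter peaks and 26 distal. Of the distal peaks, 15 were intronic and 11 intergenic, and none fell in another class. The list had 48.0% of its distal peaks in introns, 44.6% in intergenic sequence and 7.38% in other classes. By distance, 10 lay within 10 kb of the TSS, 10 between 10 and 100 kb and 6 beyond 100 kb. Among all distal peaks 28.9% lay within 10 kb, 58.1% at the middle distances and 13.0% beyond. The near peaks came mostly from Dntt (5) and Rag2 (3), and the far ones from Rag2 (4), Prkdc (1) and Xrcc4 (1). Repeats were annotated for 5 of the 26, against 17.9% of distal peaks. Median G plus C content was 41.9% in the 26 peaks and 47.7% over the list.

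The 30 peaks were searched for exact strings of 15 motif families on both strands, each matching position counted once and overlaps between families allowed. The E-box family was searched as CAGCTG or CAGGTG, with matches to either counted together. For lymphoid and blood factors the string was GGAAGT in the case of the ETS family, TGTGGT in that of RUNX proteins, TGGGAA in that of Ikaros, TAACNG in that of MYB proteins, CTTTGA in that of the TCF/LEF family and AGATAA in that of GATA factors. The FOXO family was searched as GTAAACA and the STAT family as TTCNNNGAA with a free spacer. Promoter strings were CCAAT itself, GGGCGG in the case of the GC box, GCATGCGC in that of the factor NRF1 and AAGATGGCG in that of the factor YY1. The heptamer of recombination signals was searched as CACAGTG, and the CTCF site by its 12-base string. Of the 26 distal peaks 12 held an E-box, against 52.5% of all distal peaks. In the central 200 bp alone the members' share lay above that of the list instead of below it, with 11 of 26 against 30.2%, so the side on which the members fall depends on the stretch searched. RUNX and MYB strings were each in 13 (42.5% and 43.0% of the list), ETS in 9 (43.9%), TCF/LEF in 7 (31.6%), GATA in 6 (26.9%) and Ikaros in 5 (38.2%). CCAAT boxes were in 14 (45.5%). The members' shares thus lay on both sides of those of the list. With only 26 peaks, small gaps are not read as a trait of the genes, and no test was made. A GC box was in none (14.6%), and no distal or promoter member peak matched NRF1 or YY1. The heptamer was in 3 (16.6%), of which 2 were Rag2 peaks. In all, 12 of the 450 pairs of a peak and a family had as many matches as under 5% of peaks of the same kind, and 3 of these were under 1%. The last of them, beside the TCF/LEF and GATA matches at Rag2, was the Xrcc4 peak at 160116 bp with 4 CCAAT boxes (0.594%). A match is a description of sequence, and binding was not measured.

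**Figure D5:**
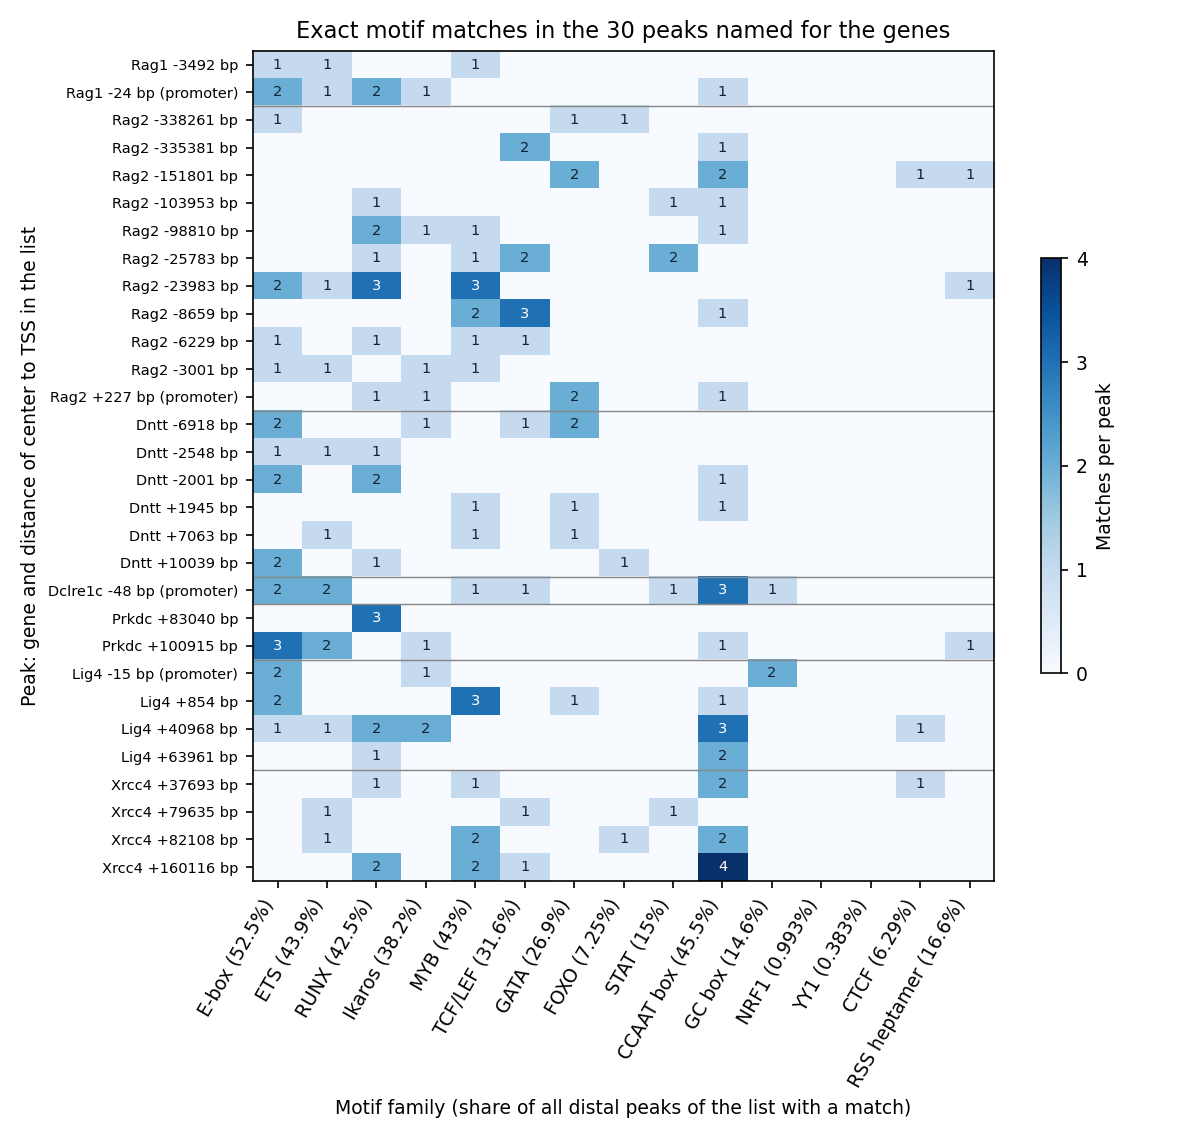
Number of exact matches per peak (shade and digit) for 15 motif families (columns, with the share of all distal peaks of the list that hold a match) in the 30 peaks named for the genes (rows, with the signed distance to the TSS in bp). The Rag2 peak 23983 bp upstream holds 3 RUNX and 3 MYB matches, the one 8659 bp upstream holds 3 TCF/LEF matches, and the NRF1 and YY1 columns are empty.

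Among 15 other genes of the pathway, 11 had a promoter peak of their own name and 13 had one by position at the RefSeq Select TSS. The background shares above were 64.5% and 58.9%. The 64.5% covers only genes that the list names, whereas the 15 include Vpreb1, which it does not name. The Ku subunits and other end joining factors had 3 of 4 by name and 4 by position, the polymerases Polm and Poll 2 of 2, the RAG cofactors Hmgb1 and Hmgb2 2 of 2, and the damage response genes 3 of 4 by name and 4 by position. The 2 genes added by position were Nhej1, with a peak 276 bp from its TSS named Slc23a3, and the kinase gene Atm, with one 214 bp away named Npat. Of the surrogate light chain genes, whose products pair with the first heavy chain in B cell precursors as Ptcra does with the beta chain, Igll1 had a promoter peak and Vpreb1 and Vpreb2 did not. The nearest centers were 1563 bp from Vpreb1, which was not named in the list, and 6354 bp from Vpreb2. Poll was named for 10 peaks, and Hmgb1 and Hmgb2 for 8 each, the highest counts of the 15.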

How the data were processed

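ATAC-seq reads of 12 samples were aligned by the authors to mm10 (GRCm38) and peaks were called per cell type with the ENCODE pipeline, replicates entering through the Irreproducible Discovery Rate analysis. The authors concatenated the 6 lists, removed overlaps with chromVAR and had HOMER add gene names (version 4.10.2 per the submitters' processing notes). The deposited list gives, for each peak and in bp, its bounds and how far its center is from a TSS, without normalization, and a peak score that the authors deposited as 0 in every row and that was not used. All peaks were 499 bp wide. Reads per peak and per sample were not analysed here, so depth is unknown and no test between samples or cell types was made.

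Promoter peaks had a center within 500 bp of a TSS by the deposited distance column, as in the study, and other peaks were distal. TSSs, gene bodies, promoter windows and sequence came from RefSeq on GRCm38.p6. CpG-rich meant a ratio of at least 0.6 and a G plus C content of at least 50%. Motifs were exact strings searched over the whole peak. The search was tested for E-boxes alone, on simulated sequences made of A and T, where 200 of 200 planted sites were found in 2000 sequences. Such sequences hold no E-box unless planted, so the test checks the code and not the rate of matches in real sequence. Named were all 8 genes, the other pathway genes without a promoter peak or with the most peaks, and genes that border or share a locus, and others in their group are listed without values. The members and lists were chosen with earlier results of these data known. Alternatives concerned the promoter limit, the rule that assigns peaks to genes, the locus limits, the CpG limits and the motif match. Python 3.11.15, numpy 2.4.6, pandas 2.3.3 and matplotlib 3.10.9 were used.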

Additional observations from a re-analysis of the deposited data

How the results depend on the processing

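The count of promoter peaks by gene name, 4 of the 8 genes, was 3 with a limit of 100 bp and 4 with 1000 bp, and it was 6 at RefSeq TSSs whatever the name. The 30 peaks of the genes became 31 by nearest RefSeq Select TSS, 35 in the gene bodies and 10 kb around them, and 44 by the basal plus extension rule. The 26 distal peaks numbered 25 to 37, and the 19 peaks of the Rag1 and Rag2 locus 13 to 15 under narrower limits. For the other pathway genes 8 and 11 replaced 11. Counts moved by over 1.5 times in 2 cases. With a CpG ratio of at least 0.75 and a G plus C content of at least 55%, 0 of the 4 promoter peaks were CpG-rich instead of 1. E-boxes were in 11 distal peaks in the central 200 bp (30.2% of the list) and in 8 with CAGCTG alone (30.4%). With 1 mismatch allowed, 26 of 26 distal peaks held an E-box instead of 12, as did 99.9% of all distal peaks, so this setting does not separate peaks. No paired analysis was possible because the list holds no values per sample. Leaving out each replicate was not run for the same reason, and a stricter score was not run because all scores were 0. Depth is unknown, so a gene without a peak may still hold reads.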
